A study of Mus musculus with 6 samples.

Results

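The genes described here were 10 components of the innate sensing machinery of the liver, namely the Toll-like receptors Tlr2, Tlr4, Tlr7 and Tlr13, the co-receptor Cd14, the inflammasome genes Nlrp3, Pycard and Casp1, and the downstream genes Il1b and Gsdmd. They were chosen by symbol from the 25403 genes of the table. Each symbol had a single entry, and all 10 passed the filter on low counts that kept 14496 genes. Bulk RNA was sequenced from livers of 3 WT C57BL6/J mice and 3 whole-body Themis-KO mice. Themis is a regulator of T cell receptor signaling. The knockout is described as whole-body, so that effects arising in hepatocytes and in immune cells, T cells included, cannot be told apart here. Both groups received the same MASH diet, in which fat gave 40% and fructose 20% of the energy and cholesterol was added at 2%, from an age of 10 to 12 weeks for 3 months. The labels do not give the sex of each mouse. The study's methods give male mice for its diet feeding experiments, but both sexes for the liver samples of gene expression analysis. The legend of its figure on diet-fed WT and Themis-KO mice gives male mice. The comparison asks how innate immune transcripts of the liver differ between the genotype labels under this diet.

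Toll-like receptors are membrane proteins that recognize microbial products and some host molecules released by damaged cells. They signal through the adaptors MyD88 and TRIF to NF-kB and to interferon regulatory factors, which raise the transcription of cytokines and of some inflammasome components. An inflammasome is a cytosolic complex in which a sensor such as NLRP3 recruits ASC, the product of Pycard, and pro-caspase-1. Active caspase-1 cuts pro-IL-1 beta and gasdermin D, which then forms pores in the plasma membrane. In the liver, Kupffer cells and infiltrating macrophages are known for high levels of many of these genes. The assay measured mRNA, and therefore neither protein cleavage nor cytokine release.

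The libraries held 20679642 to 25649767 counts on genes, and values are given as CPM, read counts scaled to a common library size by TMM. Themis itself did not separate the labels. Its level was 8.07, 25.6 and 12.0 CPM in WT replicates 1, 2 and 3 and 8.62, 7.74 and 9.96 CPM in the Themis-KO livers, which is -0.79 ± 0.38 (SE) as a log2 fold change, at an adjusted p of 0.199 (edgeR quasi-likelihood test with Benjamini-Hochberg adjustment, used throughout). The groups are therefore named as the livers labelled WT and the livers labelled Themis-KO, and every direction given rests on those labels. Counts of mt-Nd3 and of Gm28438, annotated as an unprocessed pseudogene on chromosome 1, split the livers across the labels. Gm28438 made up 96.6% and 96.8% of the summed Gm28438 and mt-Nd3 counts in WT replicates 1 and 2, against 2.20% in WT replicate 3 and 2.27% to 3.26% in the livers labelled Themis-KO. This split is called the mitochondrial type below, and its origin was not tested. Of the 14496 genes tested, 721 were called higher and 600 lower in the livers labelled Themis-KO at an adjusted p under 0.05, a split of 54.6% higher that became 78.9%, with 1449 higher and 387 lower calls, with scaling by total counts alone. The labels name separate livers and say nothing more of their origin, so p-values measure the spread between these samples.

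Of the 10 genes, Tlr2 was called higher in the livers labelled Themis-KO and none was called lower. Across all genes tested, 4.97% were called higher and 4.14% lower. A log2 fold change above 0 was found for 9 of the 10, against 51% of all genes, and its median was 0.70, against 0.0095 over all genes. An unadjusted p under 0.05 with a higher level was found for 7 of the 10, against 16.8% of all genes. With a lower level it was found for none, against 2011 of the 14496 genes tested. Every liver labelled Themis-KO lay above every liver labelled WT for Tlr2, Tlr13, Pycard and Casp1, 4 of 10 against 17.7% of all genes. No member lay wholly below, against 17% of all genes. DESeq2 called Tlr2, Tlr13 and Cd14 higher and none lower, against 9.18% of all genes higher and 7.83% lower by that tool. The largest fold changes were those of Cd14, Tlr13 and Tlr2, and Gsdmd was the gene with no positive value. In bulk liver, more cells of a type and more RNA per cell cannot be told apart.

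**Figure D1:**
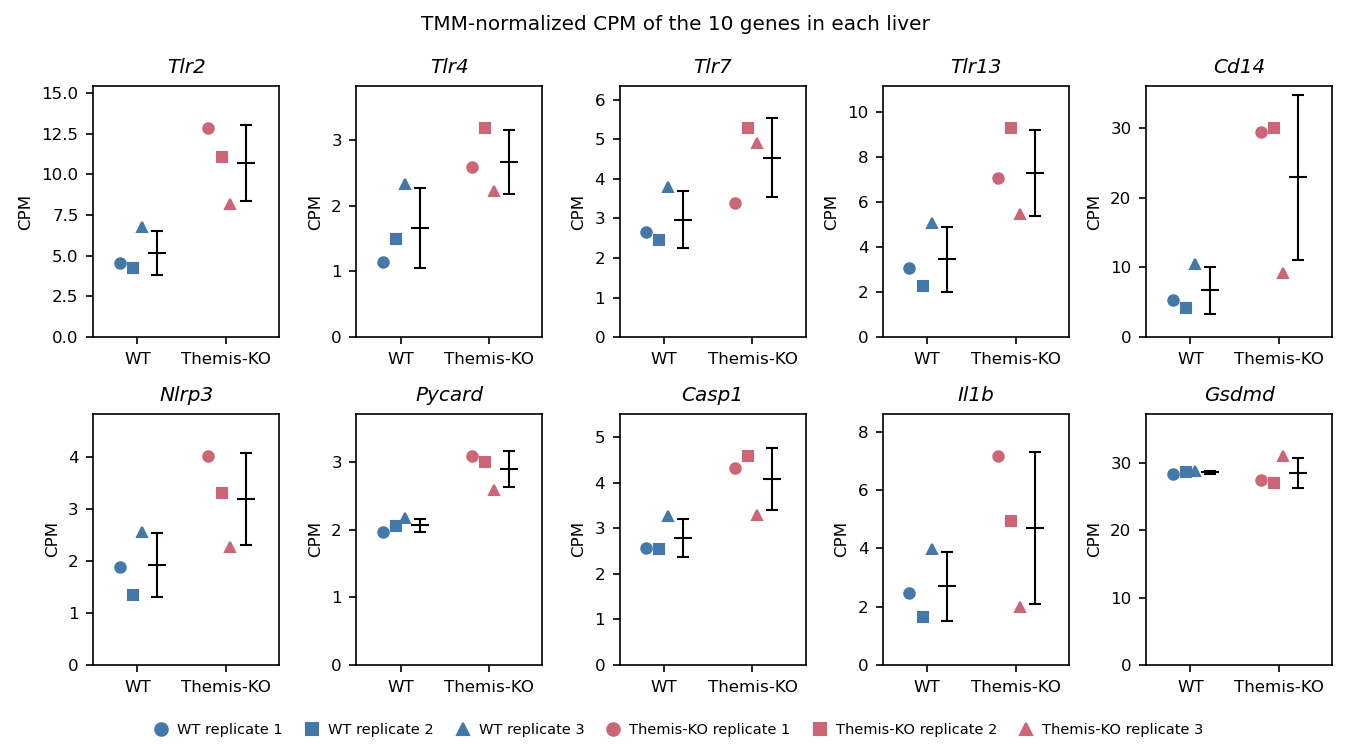
Level of each of the 10 genes in every liver, in TMM-normalized CPM on a linear axis that starts at 0, with WT livers in blue, Themis-KO livers in red, and the mean ± SD (n = 3) as a black bar beside each group. The groups are apart for Tlr2, Tlr13, Pycard and Casp1, WT replicate 3 is the highest WT liver in all 10 panels, and Themis-KO replicate 3 is the lowest Themis-KO liver in 8.

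The order of the livers was shared by most of the genes. WT replicate 3 had the highest level of the WT livers for 10 of 10 genes, which held for 33% of all genes tested. Themis-KO replicate 3 had the lowest level of the Themis-KO livers for 8 of 10 genes, against 41% of all genes. WT replicate 2 was the lowest of the 6 livers for 7 genes. For Tlr4, Cd14, Nlrp3 and Il1b, Themis-KO replicate 3 lay below WT replicate 3.

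Promoters of 3 of the genes are shown because they belong to the gene that was called (Tlr2), the inflammasome sensor (Nlrp3) and the cytokine (Il1b). Each was read as the 250 bases before a RefSeq start site in GRCm38.p6 and is printed 5′ to 3′ on the strand of the gene. For Tlr2, 159 of these bases lie in the first exon that GENCODE gives the gene, and the 91 bases upstream of it are printed, chr3:83841768-83841858 on the minus strand. The Nlrp3 window is chr11:59542436-59542685 on the plus strand, and the Il1b window chr2:129371140-129371389 on the minus strand. The Nlrp3 window precedes a RefSeq start site but lies within the gene as GENCODE gives it, which starts at 59541568. Capitals mark GAGGAA on either strand, a core of the sites bound by the myeloid factor PU.1. In the Il1b window they mark TATAAA, the core promoter element that TBP binds, and in the Tlr2 sequence a match to the NF-kB consensus.
Tlr2: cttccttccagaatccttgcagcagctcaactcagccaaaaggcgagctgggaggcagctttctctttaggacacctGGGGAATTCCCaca
Nlrp3: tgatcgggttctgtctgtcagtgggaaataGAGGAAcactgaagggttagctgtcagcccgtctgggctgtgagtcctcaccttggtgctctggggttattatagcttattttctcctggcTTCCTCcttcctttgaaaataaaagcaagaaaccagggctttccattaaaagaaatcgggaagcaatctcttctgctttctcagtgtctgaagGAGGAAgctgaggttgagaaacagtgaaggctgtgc
Il1b: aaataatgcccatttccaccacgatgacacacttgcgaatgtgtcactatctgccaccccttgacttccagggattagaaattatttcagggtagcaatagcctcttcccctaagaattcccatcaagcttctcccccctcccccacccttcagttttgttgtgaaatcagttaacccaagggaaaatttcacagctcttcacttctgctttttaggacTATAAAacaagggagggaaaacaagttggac

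RefSeq promoters were matched for 6 of the 10 genes, namely Tlr2, Tlr13, Nlrp3, Pycard, Casp1 and Il1b. Tlr4, Tlr7, Cd14 and Gsdmd were not matched. GAGGAA was found on either strand in 4 of the 6 (Tlr13, Nlrp3, Pycard and Casp1), against 23.3% of 32851 promoters of the same length. For this and the other sequences, a gene was counted if any of its windows matched. The share of all promoters counts each window singly, so a gene with several windows, such as Nlrp3, is not measured alike. In Nlrp3 it stood at positions -220, -129 and -36 from the RefSeq start site, in the printed window that lies within the GENCODE gene. A further Nlrp3 window at chr11:59541319-59541568, which ends at the start of the GENCODE gene, held no match to it. TATAAA was found in 1 of the 6, Il1b, at position -31, against 12.4% of all promoters. TTGCNNAA, the C/EBP sequence, was found in 1, Pycard, against 9.56%. The NF-kB consensus was found in 2 of the 6, against 7.25% of all promoters, in Tlr2 as overlapping matches at -173 and -172 and in Nlrp3 in the further window at -186. This wider form of the site was taken after the Tlr2 sequence had been seen. None of the 6 held TGANTCA (the AP-1 site, 6.75%) or a repeat of GAAA with any 2 bases between (a form of the interferon-stimulated response element, 2.98%). No match says only that these letters are not in the window, and a match is a description of sequence and not a measured site.

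Tlr2 encodes the receptor that, paired with TLR1 or TLR6, recognizes bacterial lipoproteins. The gene lies at chr3:83836272-83841767 on the minus strand (GRCm38). Its level was 4.58, 4.22 and 6.74 CPM in WT replicates 1, 2 and 3, from 100, 88 and 171 counts. It was 12.9, 11.0 and 8.21 CPM in Themis-KO replicates 1, 2 and 3, from 303, 257 and 174 counts. All 3 livers labelled Themis-KO were above all 3 labelled WT, and the closest pair was Themis-KO replicate 3 and WT replicate 3. The means were 5.18 ± 1.36 and 10.7 ± 2.35 CPM (SD, n = 3), a log2 fold change of 1.04 ± 0.23 (SE) with an adjusted p of 0.0389. The exact two-sided permutation test of log2 CPM gave p = 0.1, the smallest that 3 against 3 livers allow. Over 14 alternative fits the log2 fold change of Tlr2 stayed between 0.668 and 1.28, and its adjusted p ran from 0.000933 to 0.475 with 8 fits past the threshold. Its adjusted p was 0.144 when WT replicate 1 was left out and 0.121 for WT replicate 2, and it was 0.133 and 0.131 when the first or second of the livers labelled Themis-KO was left out. With the mitochondrial type as a covariate it was 0.475 at a log2 fold change of 0.668.

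Tlr4, the receptor for lipopolysaccharide, lies at chr4:66827584-66930284 on the plus strand and was the least abundant of the 10 genes for its length. Its level was 1.15, 1.49 and 2.33 CPM in the livers labelled WT and 2.59, 3.18 and 2.22 CPM in those labelled Themis-KO. The groups overlapped, since Themis-KO replicate 3 was below WT replicate 3. At a log2 fold change of 0.68 ± 0.29 (SE), the difference did not pass the test (adjusted p = 0.165).

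Cd14 encodes the glycosylphosphatidylinositol-anchored and soluble protein that hands lipopolysaccharide to the TLR4 complex and also serves TLR2. The gene lies at chr18:36725067-36726798 on the minus strand. Its level was 5.36, 4.22 and 10.5 CPM in the livers labelled WT and 29.5, 30.0 and 9.25 CPM in those labelled Themis-KO. Themis-KO replicates 1 and 2 stood above every liver labelled WT, while Themis-KO replicate 3 was below WT replicate 3. The means were 6.70 ± 3.36 and 22.9 ± 11.8 CPM (SD, n = 3), and the log2 fold change of 1.76 ± 0.49 (SE) was the largest of the 10 with an adjusted p of 0.0604. Over the 14 alternatives the adjusted p of Cd14 ran from 0.00429 to 0.551, and 4 of them passed the threshold. Among these, the fit without Themis-KO replicate 3 gave a log2 fold change of 2.12.

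The nucleic acid receptors among the 10 were the endosomal Tlr7, which recognizes single-stranded RNA, and Tlr13, which recognizes bacterial ribosomal RNA in mice and is absent from the human genome. Tlr13 lies at chrX:106143204-106160493 on the plus strand. Its level was 3.07, 2.25 and 5.05 CPM in the livers labelled WT and 7.05, 9.28 and 5.47 CPM in those labelled Themis-KO. The groups did not overlap, but Themis-KO replicate 3 was close to WT replicate 3. The log2 fold change was 1.06 ± 0.31 (SE), as large as that of Tlr2 with a larger error, and the adjusted p was 0.0705. The adjusted p of Tlr13 ran from 0.0109 to 0.589 over the 14 alternatives, 4 of which passed the threshold: DESeq2, no filter on low counts, and the fits without WT replicate 3 or Themis-KO replicate 3. Tlr7, at chrX:167304929-167330558 on the minus strand, had a level of 2.66, 2.45 and 3.79 CPM in the livers labelled WT and 3.40, 5.29 and 4.91 CPM in those labelled Themis-KO. Its groups overlapped between Themis-KO replicate 1 and WT replicate 3, and its log2 fold change of 0.60 ± 0.24 (SE) did not pass the test (adjusted p = 0.143).

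Of the inflammasome genes, Nlrp3 encodes the cytosolic sensor of potassium efflux, crystals and other cell stress. It lies at chr11:59541568-59566956 on the plus strand. Its level was 1.88, 1.34 and 2.56 CPM in the livers labelled WT and 4.03, 3.31 and 2.27 CPM in those labelled Themis-KO. Themis-KO replicates 1 and 2 were above all WT livers, and Themis-KO replicate 3 was below WT replicate 3. The log2 fold change of 0.72 ± 0.30 (SE) did not pass the test (adjusted p = 0.153), and without Themis-KO replicate 3 it was 0.899 with an adjusted p of 0.0471, the lowest of a range that reached 0.775 over the 14 alternatives.

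Pycard encodes ASC, the adaptor that links the sensor to caspase-1. It lies at chr7:127989708-127993867 on the minus strand. Its level was 1.97, 2.06 and 2.17 CPM in the livers labelled WT and 3.10, 3.01 and 2.60 CPM in those labelled Themis-KO. The groups did not overlap, and the WT livers were close together. Pycard had a log2 fold change of 0.49 ± 0.18 (SE) at an adjusted p of 0.115, and no alternative brought it past the threshold (adjusted p from 0.0626 to 0.588). The gene model Gm45205 overlaps Pycard on the other strand and had at most 4 counts in any liver.

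Casp1 encodes the protease that matures IL-1 beta and cuts gasdermin D. It lies at chr9:5298517-5307265 on the plus strand. Its level was 2.57, 2.54 and 3.27 CPM in the livers labelled WT and 4.33, 4.60 and 3.30 CPM in those labelled Themis-KO. The groups were apart by 0.0302 CPM, the gap between Themis-KO replicate 3 and WT replicate 3. The log2 fold change of 0.54 ± 0.20 (SE) did not pass the test (adjusted p = 0.118), and over the 14 alternatives the adjusted p ran from 0.0376, without Themis-KO replicate 3, to 0.688.

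Il1b, the gene of the cytokine IL-1 beta, lies at chr2:129364570-129371139 on the minus strand. Its level was 2.48, 1.63 and 3.98 CPM in the livers labelled WT and 7.17, 4.94 and 1.98 CPM in those labelled Themis-KO. The livers labelled Themis-KO held both the highest values and a value, that of replicate 3, below those of WT replicates 1 and 3. The difference of 0.79 ± 0.48 (SE) as a log2 fold change did not pass the test (adjusted p = 0.290). Single livers moved this value, which was 1.14 without Themis-KO replicate 3 (adjusted p = 0.0434, in a range up to 0.903 over the alternatives), 1.19 without WT replicate 3 and 0.35 without Themis-KO replicate 1. The antisense gene Il1bos had at most 3 counts in any liver.

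Gsdmd encodes gasdermin D, the pore protein. It lies at chr15:75862327-75867408 on the plus strand. Its level was 28.4, 28.7 and 28.9 CPM in the livers labelled WT and 27.5, 27.0 and 31.1 CPM in those labelled Themis-KO. The values of both groups lay within the same narrow range, from 598 to 732 counts a liver. The log2 fold change was -0.0055 ± 0.088 (SE) with an adjusted p of 0.972, and its sign turned to 0.131 under total counts alone, a scaling that moved the median of all genes from 0.0095 to 0.147.

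Levels of different genes were compared per kilobase of the principal transcript. Gsdmd was the most abundant of the 10 in the livers labelled WT at 16.0 ± 0.125 CPM per kb (SD, n = 3), followed by Cd14 at 4.09 ± 2.05. Il1b at 1.99 ± 0.879, Casp1 at 1.87 ± 0.277 and Tlr2 at 1.72 ± 0.453 CPM per kb lay within each other's spread. Tlr13 at 0.852, Tlr7 at 0.760, Pycard at 0.544, Nlrp3 at 0.480 and Tlr4 at 0.405 CPM per kb were the 5 lowest. In the livers labelled Themis-KO, Gsdmd was at 15.9 ± 1.26 and Cd14 at 14.0 ± 7.22 CPM per kb, so that these neighbours no longer differed beyond their spread. Tlr2 followed at 3.55 ± 0.778 and Il1b at 3.47 ± 1.92 CPM per kb, also within their spread. Pycard is read per kb of a 3.8 kb transcript, and a shorter transcript would give it a higher level per kb.

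**Figure D2:**
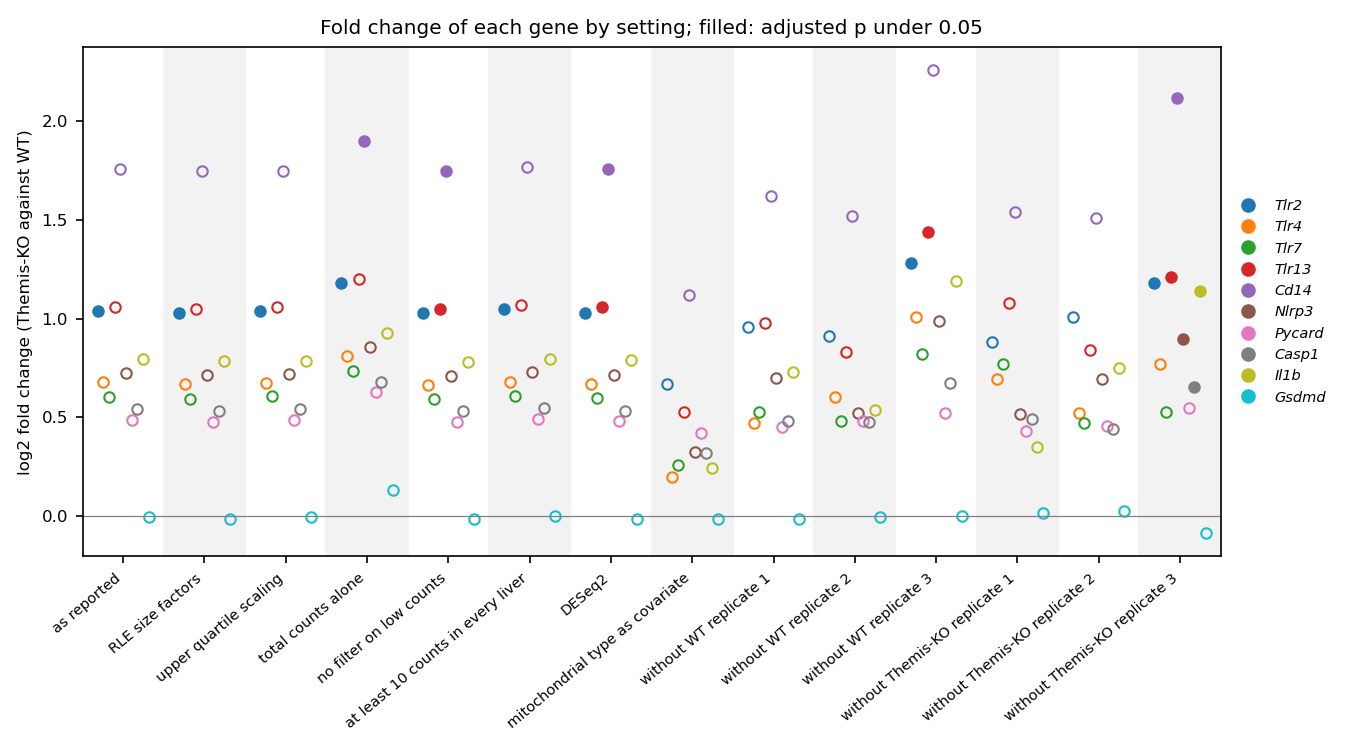
Log2 fold change of each of the 10 genes (livers labelled Themis-KO against livers labelled WT) in the reported fit and in alternatives of scaling, filter, tool, covariate and left-out liver, with filled points for an adjusted p under 0.05. Cd14 is the highest point in every setting, Gsdmd stays near 0, and the filled points are most numerous without Themis-KO replicate 3 (6 genes) and absent with the mitochondrial type as a covariate and without replicate 1 or 2 of either label.

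Results of the 10 genes depended on single livers. Without Themis-KO replicate 3, 6 of them were called higher, namely Tlr2, Tlr13, Cd14, Nlrp3, Casp1 and Il1b. Calls over all genes were also more numerous in that fit, with 15% higher (2228 genes) and 13.8% lower (2039 genes). Without WT replicate 3, Tlr2 and Tlr13 were called, against 3.24% of all genes higher and 2.49% lower. Leaving out any of the other 4 livers in turn left none called by edgeR, with 3 or 4 of the 10 higher at an unadjusted p under 0.05. Over all genes, 1756 of 14830 were higher at that unadjusted p without WT replicate 1 and 1832 of 14855 without WT replicate 2. It was 1601 of 14738 without Themis-KO replicate 1 and 1747 of 14771 without Themis-KO replicate 2. The share of all genes called in these fits was 0.0809% higher and 0.216% lower without WT replicate 1, 0.128% and 0.384% without WT replicate 2, 0.0543% and 0.0814% without Themis-KO replicate 1, and 0.183% and 0.278% without Themis-KO replicate 2. When mitochondrial type was a covariate, which leaves WT replicate 3 as the only WT liver of the type of the Themis-KO livers, none was called and 1 had an unadjusted p under 0.05, while 9 of the 10 fold changes stayed above 0. In that fit 0% of all genes were called higher and 0.0207% lower.

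Macrophage and monocyte markers moved with these genes. All 14 macrophage markers listed had positive log2 fold changes, 5 were called higher, their median was 0.68 and none was at 0 in any liver. For this and the other marker lists, the shares of all genes tested were 51% positive, 4.97% called higher and 4.14% called lower. Their summed level was 492.5 to 739.3 CPM in the livers labelled WT, highest in replicate 3, and 812.9 to 1046 CPM in those labelled Themis-KO, lowest in replicate 3. Cd68, a lysosomal protein of macrophages, was at 12.7, 11.3 and 19.4 CPM in the livers labelled WT and at 30.8, 36.2 and 23.6 CPM in those labelled Themis-KO, and it rose by 1.06 ± 0.23 (log2, SE, adjusted p = 0.0369). Itgax, which encodes CD11c, rose by 1.34 ± 0.31 (log2, SE, adjusted p = 0.0401). Both were named after their values were seen.

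All 8 monocyte markers had positive fold changes, with 3 called higher and a summed level of 21.6 to 32.8 CPM against 37.7 to 65.3 CPM. None of the 7 Kupffer cell markers was called by edgeR, while an unadjusted p under 0.05 was found for 1 in each direction and DESeq2 called 1 in each direction. The summed level of the Kupffer cell markers overlapped, with 237.4 to 405.7 CPM in the livers labelled WT and 330.5 to 419.3 CPM in those labelled Themis-KO. Of 11 neutrophil markers 10 were in the table and 5 were tested, none was called by edgeR, 4 had an unadjusted p under 0.05 with a higher level and 1 was called by DESeq2. Their summed level was 19.5 to 25.8 CPM against 24.6 to 43.9 CPM. The 4 with an unadjusted p under 0.05 were S100a8, S100a9, Csf3r and Cxcr2. Their log2 fold changes were 1.13, 1.21, 0.98 and 1.145, and the groups of each overlapped. Hdc, also tested, was at 0.19, and Mpo, with at most 3 counts in every liver, was not tested. Hepatocyte markers had the opposite order, and 3 of 12 were called lower. Their summed level was 67750 to 71510 CPM in the livers labelled WT and 50990 to 56870 CPM in those labelled Themis-KO. Most of that sum was Alb, at 39750 to 42990 CPM against 33560 to 37290 CPM. Of the 12, 6 lay wholly lower, against 17% of all genes, and Hnf4a alone had a positive log2 fold change, 0.045. Tat was at -0.149 with overlapping groups. The part of these cell types in the results of the 10 genes was not tested.

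Each gene was also set against the macrophage markers of the same liver, and of the genes whose groups did not overlap in CPM, Tlr13, Pycard and Casp1 overlapped on this measure and Tlr2 did not. The measure was the log2 CPM of a gene minus the mean log2 CPM of the 14 macrophage markers. For Tlr2 it was -2.10, -2.21 and -2.22 in the livers labelled WT and -1.63, -2.09 and -2.05 in those labelled Themis-KO. The groups of Tlr2 were apart, though Themis-KO replicate 2 and WT replicate 1 nearly met, with means of -2.18 ± 0.066 and -1.92 ± 0.26 (SD, n = 3). For Gsdmd it was 0.51, 0.53 and -0.13 in the livers labelled WT and -0.54, -0.80 and -0.14 in those labelled Themis-KO, so that the groups were apart in the lower direction with replicate 3 of both labels side by side. The other 8 genes overlapped. The share of all genes whose groups are apart on this measure was not computed. The macrophage mean was itself apart between the labels, at 4.323, 4.316 and 4.989 in WT replicates 1, 2 and 3. It was 5.322, 5.564 and 5.106 in Themis-KO replicates 1, 2 and 3. A gene with equal CPM under both labels, as Gsdmd nearly was, is therefore moved lower by the measure itself. The shares in CPM, 17.7% higher and 17% lower, are not its background, and no conclusion is drawn from 1 of 10 in each direction. The mean difference was positive for 3 of the 10, with 0.25 for Tlr2, 0.31 for Tlr13 and 0.90 for Cd14, and negative for the other 7.

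**Figure D3:**
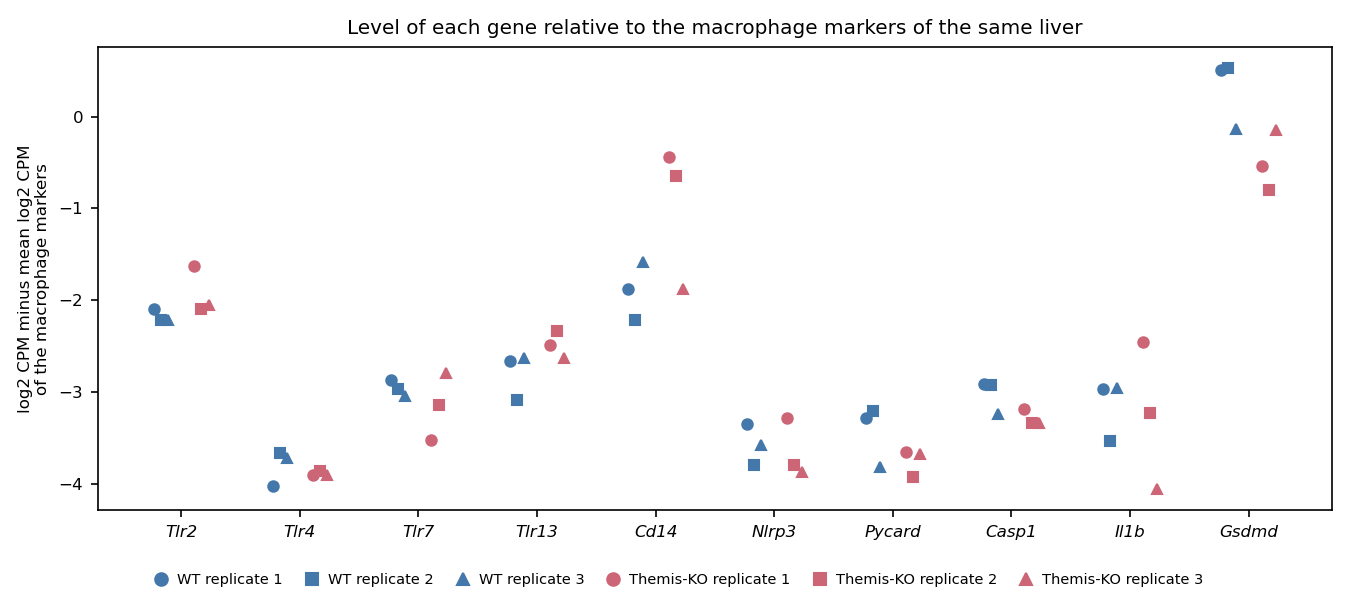
Log2 CPM of each of the 10 genes minus the mean log2 CPM of 14 macrophage markers in the same liver, with WT livers in blue and Themis-KO livers in red. The groups are apart only for Tlr2 (higher in the livers labelled Themis-KO, by a narrow gap) and Gsdmd (lower), and the other 8 genes overlap. The share of all genes apart on this measure was not computed.

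The rest of the pathway was read from 6 lists of 105 genes, 104 of which were in the table and 95 tested. Of these, 9 were called higher and 3 lower, and 71 had a positive log2 fold change with a median of 0.36 against 0.0095 over all genes. Of all genes tested, 4.97% were called higher, 4.14% were called lower and 51% had a positive log2 fold change. The same shares stand beside the counts of each list below. The 20 response genes of TLR and NF-kB signaling had the highest median, 0.94 over the 16 tested, and the 20 co-receptors, chaperones and adaptors had the lowest, 0.089.

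**Figure D4:**
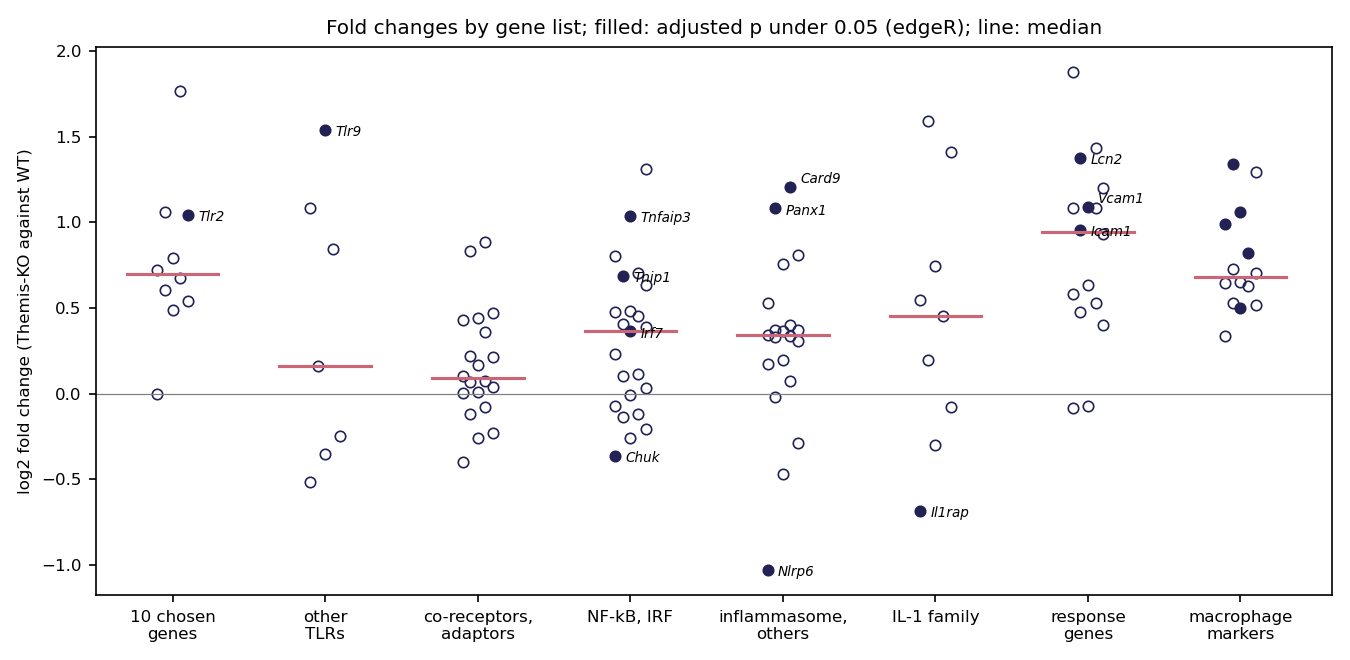
Log2 fold change (livers labelled Themis-KO against livers labelled WT) of the 10 genes, of 6 lists of other pathway genes and of 14 macrophage markers, with a point for each gene tested, filled at an adjusted p under 0.05, and a red line at the list's median. The median is 0.70 for the 10 genes and 0.68 for the macrophage markers, and the filled points below 0 are Chuk, Nlrp6 and Il1rap.

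Among the other Toll-like receptors 7 of 8 were tested, 1 was called higher and 4 had positive fold changes. Tlr9, the endosomal receptor of unmethylated CpG DNA, was at 0.458, 0.719 and 0.907 CPM in the livers labelled WT and at 2.34, 1.63 and 2.17 CPM in those labelled Themis-KO. It rose in all 3 livers labelled Themis-KO, with a log2 fold change of 1.54 ± 0.31 (SE) and an adjusted p of 0.0313 that ran from 0.00239 to 0.436 over the 14 alternatives. Tlr1, the partner of Tlr2 in sensing triacylated lipoproteins, was at 1.93, 2.54 and 4.22 CPM against 6.41, 7.09 and 5.05 CPM. Its groups did not overlap, and its log2 fold change of 1.09 ± 0.29 (SE) missed the threshold (adjusted p = 0.0558). Tlr5, the flagellin receptor, named after its values were seen, was the most abundant receptor of this list per length at 7.46 ± 2.02 CPM per kb in the livers labelled WT, and its groups overlapped. Tlr12, also named after its values were seen, had the widest spread, with 19.3, 9.02 and 2.36 CPM in the livers labelled Themis-KO against 10.1 to 13.8 CPM in those labelled WT.

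None of the 20 co-receptors, chaperones and adaptors was called by edgeR. DESeq2 called 3 higher and 1 lower, the same counts as at an unadjusted p under 0.05. The 2 with the smallest p were Ly86, which encodes MD-1, the partner of the receptor CD180, at 0.88 ± 0.24 (log2, SE, adjusted p = 0.0575), and Traf3, a ubiquitin ligase of the interferon branch, with 0.43 ± 0.12 (SE, adjusted p = 0.0633). Ly96, which encodes the lipopolysaccharide-binding subunit MD-2 of the TLR4 complex, was at 3.80, 3.69 and 3.63 CPM against 5.60, 6.19 and 3.26 CPM, overlapping between the groups (log2 fold change 0.44 ± 0.24, SE). Lbp, Myd88 and Unc93b1, the last a chaperone of endosomal receptors, had log2 fold changes of 0.069, 0.22 and 0.21 and overlapping groups.

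Among 23 transducers and brakes of NF-kB and IRF signaling, 3 were called higher and 1 lower. Tnfaip3 encodes A20, a ubiquitin-editing enzyme that restrains NF-kB. Its level was 7.20, 7.43 and 9.11 CPM in the livers labelled WT and 18.0, 16.9 and 14.0 CPM in those labelled Themis-KO. It rose in all 3 livers labelled Themis-KO, by 1.04 ± 0.15 (log2, SE, adjusted p = 0.0145). Tnip1, an A20-binding brake on the same pathway, rose by 0.69 ± 0.16 (log2, SE, adjusted p = 0.0402), and Irf7, a transcription factor downstream of Tlr7 and Tlr9, rose by 0.36 ± 0.086 (log2, SE, adjusted p = 0.0426). Chuk, which encodes the kinase IKK alpha, was at 113.1, 122.7 and 119.2 CPM against 92.3, 85.1 and 98.1 CPM and fell by 0.37 ± 0.086 (log2, SE, adjusted p = 0.0418).

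Of 22 other genes of inflammasomes or linked to them, 20 were tested, 2 were called higher (Card9 and Panx1) and 1 lower (Nlrp6). Nlrp6, a sensor best known in the intestinal epithelium, was the gene with the largest decrease of all 6 lists. Its level was 163.9, 171.4 and 136.8 CPM in the livers labelled WT and 77.1, 64.5 and 89.5 CPM in those labelled Themis-KO. It fell in every liver labelled Themis-KO, by 1.03 ± 0.14 (log2, SE, adjusted p = 0.0131), and its level of 35.5 ± 4.10 CPM per kb in the livers labelled WT was far above that of Nlrp3. Card9, an adaptor of C-type lectin receptors, rose by 1.21 ± 0.21 (log2, SE, adjusted p = 0.0242), and Panx1, a membrane channel that releases ATP, by 1.08 ± 0.26 (log2, SE, adjusted p = 0.0430), from 15 to 24 counts in the livers labelled WT and 36 to 51 in those labelled Themis-KO.

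The partners of the NLRP3 inflammasome did not pass the test. Casp4, the caspase that binds cytosolic lipopolysaccharide and also cuts gasdermin D, was at 1.47, 1.97 and 2.60 CPM against 4.46, 3.65 and 2.12 CPM, a difference of 0.76 ± 0.32 (log2, SE, adjusted p = 0.158). The groups overlapped at replicate 3 of both labels. Nek7, the kinase that binds NLRP3, had a log2 fold change of -0.019 ± 0.090 (SE), and Txnip, a thioredoxin-binding protein linked to NLRP3, 0.17 ± 0.17 (SE).

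In the IL-1 family, 9 of 12 listed genes were tested, none was called higher by edgeR, with 3 at an unadjusted p under 0.05 and 1 by DESeq2, and 1 was called lower. Il1rap, the accessory chain of the IL-1 receptor, was at 120.1, 114.8 and 107.7 CPM in the livers labelled WT and at 66.4, 66.6 and 80.1 CPM in those labelled Themis-KO. The groups did not overlap, and it fell by 0.69 ± 0.10 (log2, SE, adjusted p = 0.0159). Il1rn, the receptor antagonist that opposes IL-1 beta, was at 9.31, 6.95 and 17.9 CPM against 43.6, 37.4 and 10.1 CPM. As for Cd14, Themis-KO replicates 1 and 2 were high and replicate 3 was below WT replicate 3. The log2 fold change of 1.41 ± 0.54 (SE) did not pass the test (adjusted p = 0.125). Il33, an alarmin of the same family, had a log2 fold change of 1.59 ± 0.42 (SE) and missed the threshold (adjusted p = 0.0549). Il18, the other cytokine matured by caspase-1, was at 4.81, 5.99 and 4.53 CPM against 3.74, 3.40 and 5.33 CPM, with overlapping groups. Il1r1, the signaling receptor, also overlapped, at 37.6 to 89.9 CPM in the livers labelled Themis-KO and 39.3 to 82.5 CPM in those labelled WT.

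Among the response genes 16 of 20 were tested, 3 were called higher and none was called lower by either edgeR or DESeq2, nor was any lower at an unadjusted p under 0.05. Vcam1, an adhesion molecule for monocytes and lymphocytes, was at 24.9, 24.4 and 31.7 CPM in the livers labelled WT and at 56.1, 63.0 and 53.3 CPM in those labelled Themis-KO. It rose by 1.09 ± 0.13 (log2, SE, adjusted p = 0.00936), and it was past the threshold in 11 of the 14 alternatives, with an adjusted p from 1.8e-10 to 0.197. Icam1, a ligand of leukocyte integrins, rose by 0.95 ± 0.23 (log2, SE, adjusted p = 0.0426), and Lcn2, an iron-siderophore-binding protein, rose by 1.38 ± 0.20 (log2, SE, adjusted p = 0.0161). Tnf, the classical cytokine of TLR signaling, was at 0.528 to 0.917 CPM in the livers labelled WT and 0.425 to 2.21 CPM in those labelled Themis-KO, and overlapped. The 12 pathway genes that were called kept their direction in every alternative fit. By edgeR none of the 12 passed the threshold without WT replicate 1 or without Themis-KO replicate 1, with 12 at an unadjusted p under 0.05 in both fits. None passed with the mitochondrial type as a covariate, with 9 at an unadjusted p under 0.05, and all 12 passed without Themis-KO replicate 3.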

How the data were processed

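The authors sequenced poly(A) RNA of whole liver in paired-end reads and, per the labels, trimmed them with cutadapt 2.3, mapped them to GRCm38 with STAR 2.7.8a and assigned them to genes with RSEM 1.3.3. The deposited table holds, for each gene and liver, the estimated count, not normalized and written as a whole number. RSEM divides reads that map to several genes, and the strand setting of the counting is not given in the sources used here. The 20679642 to 25649767 counts a liver set the precision, which for members of 25 to 107 counts (Tlr4, Nlrp3, Pycard and Casp1) is limited in part by counting error. The spread between livers adds to it. Il1b, Tlr13 and Tlr7 also had low counts in some livers, down to 34, 47 and 51.

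Counts were analysed with R 4.3.3, edgeR 4.0.16 and limma 3.58.1, with DESeq2 1.42.0 as an alternative tool. filterByExpr left out 10907 of 25403 genes, libraries were scaled by TMM, and the 3 livers labelled Themis-KO were compared with the 3 labelled WT by glmQLFit and glmQLFTest, with Benjamini-Hochberg adjustment over all 14496 genes and a threshold of 0.05. Members were taken by symbol. Log2 CPM used a prior count of 2. The members, the 6 pathway lists and the 11 marker lists (macrophage, Kupffer cell, monocyte, neutrophil, dendritic cell, T cell, B cell, sinusoidal endothelial cell, hepatic stellate cell, cholangiocyte and hepatocyte) were chosen with earlier results of these data known. Of each pathway list, up to 5 called genes with the largest fold change were named, or the 2 with the smallest p where fewer than 2 were called, beside Themis and 11 fixed partners. The scripts were tested on simulated data.

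Of the 25403 genes, 25353 had an entry in GENCODE vM21, which gave coordinates and the principal transcript's length. Promoters came from RefSeq (GRCm38.p6) and were searched for 6 short sequences on both strands. Alternatives were RLE, upper quartile and total count scaling, no filter, at least 10 counts in every liver, DESeq2, a threshold of 0.1, the replicate number as a block, the mitochondrial type as a covariate and leaving out each liver.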

Additional observations from a re-analysis of the deposited data

How the results depend on the processing

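The 10 genes kept the direction of their fold change in all alternatives except Gsdmd, whose log2 fold change of -0.0055 became 0.131 with total counts alone and ranged from -0.0881 to 0.0257 when livers were left out in turn. Higher and lower calls over all genes (721 and 600) became 1449 and 387 with total counts alone, 1212 and 967 without a filter, 1279 and 1090 by DESeq2, and 1664 and 1316 at a threshold of 0.1. Over the left-out livers they ranged from 8 to 2228 and from 12 to 2039, lowest without Themis-KO replicate 1 and highest without Themis-KO replicate 3. Members called higher (1) became 2 with total counts alone, 3 without a filter, by DESeq2 and at a threshold of 0.1, and 0 to 6 over the left-out livers. Other pathway genes called higher and lower (9 and 3) became 20 higher with total counts alone, 19 higher without a filter, 20 and 5 by DESeq2, 23 and 5 at a threshold of 0.1, and 0 to 32 and 0 to 7 over the left-out livers. With the mitochondrial type as a covariate edgeR called 0 genes higher and 3 lower over all genes (783 and 741 at an unadjusted p under 0.05), 0 members (1 unadjusted) and 0 and 0 pathway genes (6 and 3 unadjusted), and Tlr2 had a log2 fold change of 0.668. Cd14 passed the threshold with total counts alone (1.90), without a filter (1.75) and by DESeq2 (1.76), and Tlr13 without a filter (1.05) and by DESeq2 (1.06). Over the left-out livers the log2 fold change ranged from 0.884 to 1.28 for Tlr2, 0.833 to 1.44 for Tlr13, 1.51 to 2.26 for Cd14, 0.519 to 0.988 for Nlrp3, 0.44 to 0.673 for Casp1 and 0.35 to 1.19 for Il1b. The cause of these shifts was not tested.

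The replicate numbers did not pair the livers. Deviations of same-numbered livers correlated at 0.0142, -0.346 and -0.192 over 14496 genes, and 0 of 6 livers correlated best with the liver of its own number. With the replicate number as a block, edgeR called 17 genes higher and 45 lower over all genes, 0 members (4 at an unadjusted p under 0.05), 1 pathway gene higher and 0 lower (27 and 5 unadjusted), and Tlr2 had a log2 fold change of 1.05. Counts of 25 to 107 a liver limit what can be seen for Tlr4, Pycard, Nlrp3 and Casp1, as do the lowest counts of Il1b, Tlr13 and Tlr7.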

Other observations

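Markers of other liver cells also differed between the labels. Of all genes tested, 4.97% were called higher and 4.14% lower. Of 11 hepatic stellate cell markers 6 were called higher in the livers labelled Themis-KO, with a summed level of 687.7 to 737.8 CPM against 451.2 to 515.4 CPM in those labelled WT. Of 9 cholangiocyte markers 8 were tested and 2 called higher, with a summed level of 400.0 to 631.7 CPM against 167.9 to 208.0 CPM. Most of that sum was Spp1, at 366 to 570 CPM against 136.7 to 180 CPM. Of 8 dendritic cell markers 1 was called higher, and of 10 sinusoidal endothelial cell markers 1 was called higher, with summed levels of 18.9 to 21.1 against 15.5 to 17.4 CPM and of 389.2 to 439.5 against 346.9 to 391.1 CPM. T cell markers summed to 5.18 to 6.78 CPM in the livers labelled WT and 4.13 to 8.58 CPM in those labelled Themis-KO, and 1 of the 6 tested was called lower. B cell markers summed to 13.6 to 21.9 CPM and 9.80 to 20.4 CPM, and edgeR and DESeq2 called none, nor was any at an unadjusted p under 0.05.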
